A study of Mus musculus with 5 samples.

Results

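The S1 segment is the first stretch of the proximal tubule, the part of the nephron that begins directly below the glomerulus. The cells described here were chosen by the UMI counts (counts of distinct tagged mRNA molecules) of a few genes from single-cell libraries of mouse kidney. A cell was a member when it had at least 200 genes, no more than 50% of its UMIs from mitochondrial genes, at least 4 UMIs summed over Slc5a2, Slc6a19 and Spp2, at most 1 UMI of the S3 transporter gene Slc7a13, fewer than 5 UMIs summed over the fibrinogen genes Fgg, Fga and Fgb, no UMI of the leukocyte gene Ptprc, at most 1 of the endothelial gene Egfl7 and at most 2 of the thick-limb gene Slc12a1. Of 13823 cells that passed the limits on genes and mitochondrial UMIs, 2227 were members. They numbered 1428 in the sham library, 139 on day 2 of obstruction, 25 on day 7 and 635 after reversal.

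All 4 groups were kidneys of C57/BL6 mice aged 8 weeks, for which the labels give no transgene or drug. The groups were a sham operation (day 0), 2 days of unilateral ureteral obstruction, 7 days of obstruction, and 7 days of obstruction followed by reversal with collection on experimental day 14. In unilateral ureteral obstruction the ureter of 1 kidney is closed, so that urine backs up into that kidney, and in the reversible form the closure is later released. Each group was 1 droplet library made from 3 pooled mice, after digestion on ice and a sort for live, DAPI-negative cells. With 1 library per group there is no replicate, and no p-value is given. The intervals below cover the counting of UMIs or cells only and say nothing of the spread between animals.

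The proximal tubule takes back most of the filtered sodium, glucose, amino acids, phosphate and bicarbonate. It does so with sodium-coupled transporters in the apical brush border and with exit transporters and the sodium pump on the basolateral side, and S1 has the highest transport capacity of its segments. SGLT2 (Slc5a2) and B0AT1 (Slc6a19) are the apical glucose and neutral amino acid transporters of the early proximal tubule, and Spp2 encodes a secreted phosphoprotein. S1 cells also take up filtered proteins through megalin and cubilin, make glucose and ammonia, and rely on mitochondrial oxidation. Later segments (S2 and S3) carry more of the organic anion secretion and have a different set of transporters, Slc7a13 among them.

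Members were shallow in the sham library and deeper afterwards. The median was 3589 UMIs per S1 cell for sham, 5154 for day 2, 7895 for day 7 and 5185 for the reversed library, and the median number of genes was 1102.5, 1550, 2378 and 1532. Summed over members, the nuclear-encoded UMIs came to 3771430, 597022, 178393 and 2794991 in that order. Levels are given as CPM, the UMIs of a gene per 1000000 nuclear-encoded UMIs of the S1 cells of a library, so that 1 UMI stood for 0.265 CPM in sham but 5.61 CPM on day 7. Mitochondrial UMIs made up a median 35.6%, 27.3%, 17.7% and 32.6% of an S1 cell. Barcodes found in more than 1 library numbered 146 over all pairs of libraries, 1 of them among S1 cells. Free RNA and other cells caught with a member also give UMIs, so levels are set beside a reference of cells with at least 1 UMI of the leukocyte gene Ptprc and fewer than 4 UMIs over the 3 S1 genes (96, 732, 2978 and 1032 cells with median depths of 3081.5, 9059.5, 6219.5 and 5579 UMIs).

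S1 cells were a large part of the sham and reversed libraries and a small part of the obstructed ones. Of the kept cells of the sham library they made up 36.3%, with an exact Clopper-Pearson 95% interval from 34.8% to 37.8%. The share was 6.30% on day 2 (5.32% to 7.39%) and 0.562% on day 7 (0.364% to 0.829%). In the reversed library it was 19.6% (18.3% to 21%). None of these counting intervals overlapped another. Among cells with no Ptprc UMI, a denominator without most leukocytes, the shares were 37.3%, 9.48%, 1.72% and 29.7%. When every kept cell was thinned to 1000 UMIs before the rule was applied, 312, 12, 3 and 106 cells met it, which is 7.93%, 0.544%, 0.0675% and 3.28% of the kept cells of each library. The limit on mitochondrial UMIs acts on these shares, and the digestion and the live-cell sort may do so, which was not tested. A lower share of S1 cells and fewer S1 markers per cell cannot be told apart here.

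**Figure D1:**
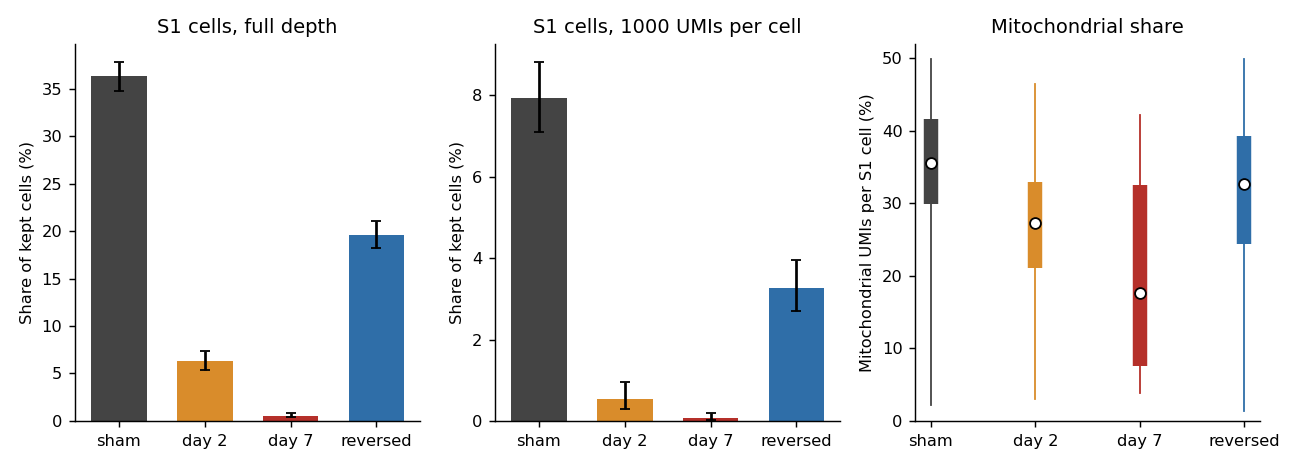
Share of kept cells that met the S1 rule at full depth and after thinning to 1000 UMIs per cell (percent, with exact 95% binomial intervals) and the mitochondrial share of UMIs per S1 cell (median, interquartile range and range) in the sham, day 2, day 7 and reversed libraries. The full-depth share was 36.3% in sham, 0.562% on day 7 and 19.6% after reversal.

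The limit on fibrinogen removed many cells on the obstructed days. Fibrinogen genes are liver genes that injured proximal tubule cells also express. Of the cells with at least 4 UMIs over the 3 S1 genes, fibrinogen took out 0 of 1458 in sham, 82 of 230 on day 2 (35.7%), 16 of 53 on day 7 (30.2%) and 5 of 726 after reversal (0.689%). Without that limit the members would have numbered 1428, 217, 34 and 638. The Ptprc limit took out 6, 8, 13 and 65 cells and the Slc7a13 limit 10, 0, 3 and 7. Next to the threshold, sham cells whose 3 S1 genes summed to 3 UMIs (336 cells) had 2818 CPM of Gatm and 4061 CPM of Slc34a1, and those that summed to 4 (228 cells) had 3096 and 4090 CPM. After reversal the 70 cells at 3 UMIs had 2168 CPM of Gatm and the 68 cells at 4 UMIs had 2167 CPM, while Slc5a12 stood at 171 and 366 CPM in them. On day 2 Slc34a1 stood at 1445 CPM in 36 cells at 3 UMIs and 2503 CPM in 29 cells at 4 UMIs.

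The values that chose the members are given as a description only. A UMI of Slc5a2 was found in 87.2%, 94.2%, 88% and 95.1% of members in the order of the libraries above. Slc6a19 was found in 63.0%, 71.2%, 60% and 65.2%, and Spp2 in 98.2%, 85.6%, 76% and 93.2%. Their median summed count was 7, 6, 6 and 9 UMIs. Slc5a2 stood at 957, 705, 521 and 920 CPM and Slc6a19 at 520, 353, 129 and 330 CPM. The fourth S1 marker, Gatm, which encodes the first enzyme of creatine synthesis, was not part of the rule and was detected at 3561, 1683, 779 and 3386 CPM, beside 276, 182, 179 and 212 CPM in reference cells. On day 7 the label was least certain. The 5 members at a marker sum of 4 had 264 CPM of Gatm, near the reference, and the 14 cells at a sum of 3 had 1287 CPM.

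Differences between libraries are given as the log2 ratio of CPM with 1 CPM added to each value, and a gene is called when it differed 2-fold or more. Genes were considered when they had at least 30 UMIs over the pair of libraries and at least 50 CPM in the higher one, leaving out the genes of the rule and mitochondrial, ribosomal, haemoglobin and sex-linked marker genes. That filter admits a low gene through the library where it is high, so counts over a list are descriptions. On day 2 against sham, 2891 genes were considered, of which 141 were higher (4.88%) and 81 lower (2.8%). On day 7 against day 2 it was 285 of 3209 higher (8.88%) and 191 lower (5.95%), with 25 cells behind the day 7 values. After reversal against day 7, 272 of 3558 were higher (7.64%) and 440 lower (12.4%). After reversal against sham, 98 of 2844 were higher (3.45%) and 3 lower (0.105%). These comparisons share libraries (sham, day 2, day 7 and reversed each enter more than 1), so they are not independent of each other. The median log2 ratio over all genes considered was -0.05, 0.12, -0.14 and 0.01 in the same order. The division into higher and lower depended on the scaling. With mitochondrial UMIs in the total, which shifted the median by 0.21, 0.18, -0.27 and 0.11, the higher and lower genes numbered 145 and 37 on day 2, 446 and 85 on day 7 against day 2, and 116 and 550 after reversal against day 7. With TMM factors, which shifted it by -0.08, -0.25, 0.19 and -0.15, they numbered 130 and 118, 168 and 344, and 389 and 238. With the cell highest in each gene left out, they numbered 93 and 111, 136 and 333, and 492 and 170. Single genes of the text were recomputed in the same way. The 172 differences of 2-fold or more in 95 genes of the lists and the largest differences gave 1401 values under the alternatives, of which 1401 had the same sign and 1299 were still 2-fold or more. The sign was partly fixed beforehand, because adding 10 CPM cannot change it and the changes of scaling shifted ratios by less than 2-fold. Part of these genes were also chosen for large differences in the same data. Of 1579 values for differences under 2-fold, 1444 kept their sign. The size moved beyond its counting interval in 106 single differences with a mitochondrial limit of 20% (60 did not), in 96 with mitochondrial UMIs in the total (247 did not), in 86 with every cell weighted equally (257 did not), in 77 with TMM factors (266 did not), in 66 with each gene's highest cell left out (277 did not), in 64 without the fibrinogen limit (279 did not), in 60 in cells with at least 20% mitochondrial UMIs (106 did not) and in 46 with the rule applied at 1000 UMIs per cell (35 did not). It moved in 33, 27 and 8 with 10 CPM added, a marker sum of at least 6 and the highest doublet scores left out.

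Of the apical transporters, the phosphate carriers had lower levels on both obstructed days, the lactate carrier only on day 7, and the sulphate carrier had higher levels on both. Slc34a1 (NaPi-2a), the main brush-border phosphate transporter, stood at 5132 CPM for sham, 3099 for day 2, 1811 for day 7 and 4006 for the reversed library. The log2 ratio of day 7 to day 2 was -0.77 and that of reversed to day 7 was 1.15, or 0.77 with every cell weighted equally. Slc34a3 (NaPi-2c), the second phosphate transporter, stood at 121, 58.6, 22.4 and 115 CPM, from 457, 35, 4 and 322 UMIs. Over all members both phosphate carriers were lowest on day 7. Among cells with 20% to 50% mitochondrial UMIs, however, Slc34a1 had 4045 CPM on day 7 (10 cells) and 3209 on day 2, and the 15 day 7 cells under 20% had 1268 CPM. Slc34a3 after reversal differed from sham by -0.07 on the log2 scale. Slc5a12, a sodium-coupled lactate transporter, took another course, with 358, 447, 163 and 416 CPM, and was below its day 2 level on day 7 by a log2 ratio of -1.45 (counting interval -2.06 to -0.90). Without the fibrinogen limit that ratio was -0.65.

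Slc13a1 (NaS1), the brush-border sulphate transporter, was the apical gene that went the other way. It stood at 255 CPM for sham, 869 for day 2, 1418 for day 7 and 349 for the reversed library, so both obstructed libraries lay above both others. The log2 ratio was 1.77 for day 2 against sham (1.61 to 1.92) and -2.02 for reversed against day 7 (-2.22 to -1.82). A UMI of it was found in 552 of 1428, 117 of 139, 25 of 25 and 368 of 635 members, and after thinning to 1000 UMIs in 15.5%, 40.3%, 84% and 20.6%, against 1.45% to 3.01% of reference cells. Slc7a9 and Slc3a1, the light and heavy chains of the brush-border cystine transporter, stood at 176, 157, 84.1 and 155 CPM and at 148, 144, 140 and 151 CPM. Slc22a12 (URAT1), the urate transporter, stood at 424, 250, 185 and 525 CPM. Of the 20 listed apical genes, 11 passed the level filter on day 2 against sham, with 1 higher and 1 lower 2-fold or more, beside 4.88% and 2.8% of all genes considered, and a median of -0.33. Slc13a1 and Slc34a3 were those members, and the Slc34a3 ratio of -1.03 was under 2-fold with mitochondrial UMIs in the total (-0.83) and with 10 CPM added (-0.93).

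**Figure D2:**
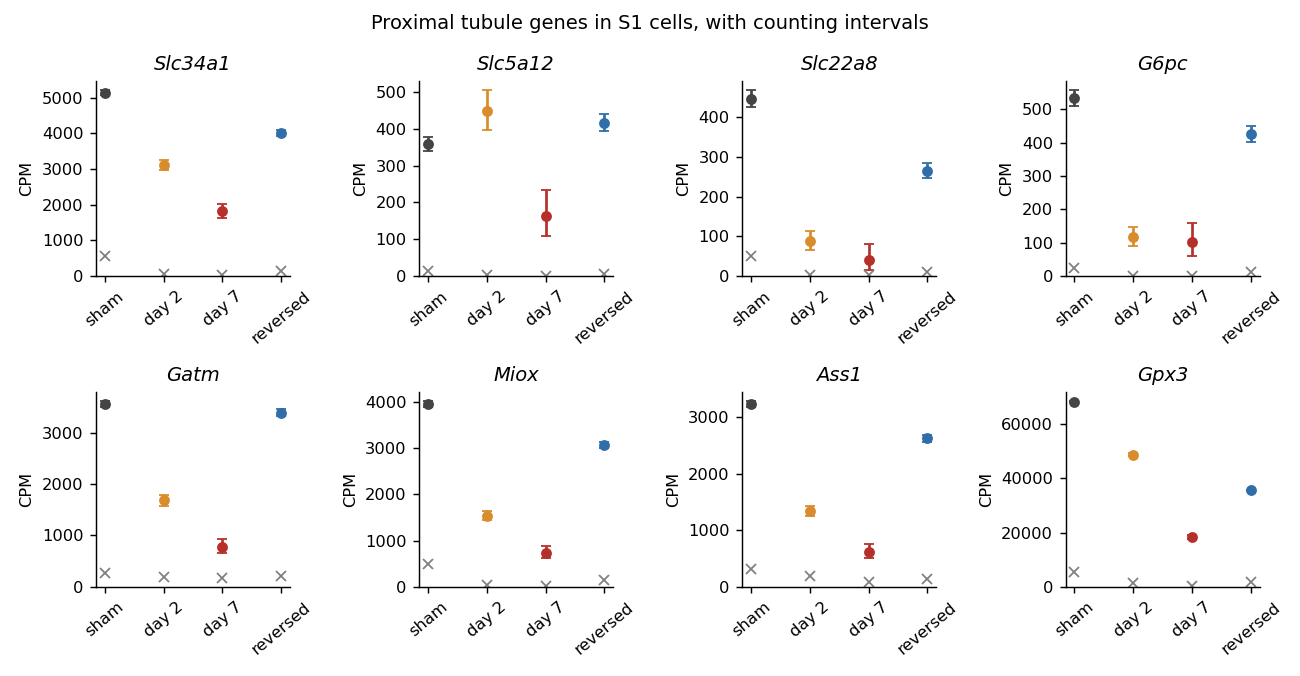
CPM in S1 cells of 8 proximal tubule genes (Slc34a1, Slc5a12, Slc22a8, G6pc, Gatm, Miox, Ass1, Gpx3) in the sham, day 2, day 7 and reversed libraries, as points with exact Poisson 95% counting intervals, and the same gene in reference cells as grey crosses. Slc22a8 had 445 CPM in sham, 39.2 on day 7 and 264 after reversal, while Slc5a12 was not lower on day 2.

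On the basolateral side the organic anion transporters were lower on day 2 and the bicarbonate and glucose exit carriers were less changed. Slc22a8 (OAT3), which takes organic anions up from the blood, had 445 CPM for sham (1679 UMIs), 87.1 for day 2 (52 UMIs), 39.2 for day 7 (7 UMIs) and 264 for the reversed library (739 UMIs). The log2 ratio on day 2 was -2.34 (-2.76 to -1.95), and the reversed level stayed below sham at -0.75. At 1000 UMIs per cell a UMI of Slc22a8 was seen in 23.8%, 6.47%, 12% and 16.7% of members, against 58.1%, 28.8%, 24% and 57% at full depth and 7.29% of the thinned sham reference cells. The thinned day 7 share rests on 25 cells and goes against the order of the CPM, so no order is read from it. Among cells with 20% to 50% mitochondrial UMIs Slc22a8 had 106 CPM on day 2 and 115 on day 7, the latter from 4 UMIs in 10 cells. Slc22a6 (OAT1), its close relative and chromosomal neighbour, stood at 216, 87.1, 95.3 and 247 CPM, with a day 2 ratio of -1.30 (-1.73 to -0.90), and its reversed level was not below that of sham. Without the fibrinogen limit the day 2 ratio was -0.92. Both genes are also markers of S2. The 5 listed S2 markers, these and Fxyd2 included, summed to 13779, 7405, 3969 and 9307 CPM in members, mostly from Fxyd2. The other members of that list, Slc13a3 and Cyp2e1, stood at 174, 131, 67.3 and 179 CPM and at 232, 191, 191 and 344 CPM, and the part of S2 cells in these values was not tested.

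Slc4a4 (NBCe1), the basolateral bicarbonate exit carrier, stood at 1551, 1305, 1110 and 1756 CPM, and Slc2a2 (GLUT2), which passes glucose to the blood, at 290, 218, 179 and 285 CPM. Neither was 2-fold lower at any step. Slc7a8 (LAT2) and Slc7a7 (y+LAT1), the light chains of basolateral amino acid exchangers, stood at 360, 312, 118 and 248 CPM and at 344, 410, 219 and 254 CPM, and Slc7a8 was lower on day 7 than on day 2 by a log2 ratio of -1.40 (21 UMIs on day 7), or -0.79 with every cell weighted equally. Of the sodium pump, the beta subunit Atp1b1 stood at 1276, 1007, 729 and 1145 CPM. Its regulator Fxyd2 had 12712, 6909, 3576 and 8273 CPM. Over the 17 basolateral genes, 16 passed the level filter on day 2, 2 of them were lower 2-fold or more (Slc22a8 and Slc22a6) and none higher, beside 2.8% and 4.88% of all genes considered, with a median of -0.54 beside -0.05. On day 7 against day 2 it was 4 lower of 15, beside 5.95% of all genes considered. After reversal against day 7 it was 9 higher of 16, beside 7.64%, with a median of 1.08 beside -0.14.

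Lrp2 (megalin), the large endocytic receptor of protein uptake, stood at 1091, 769, 617 and 1027 CPM. Its partner Cubn (cubilin) stood at 192, 184, 112 and 163 CPM, and the adaptor Dab2 at 593, 583, 561 and 558 CPM. Of 19 endocytosis genes, 17 passed the filter on day 2 and 0 were called in either direction, with a median of -0.16, where 4.88% of all genes considered were higher and 2.8% lower. Of the 11 genes of acid and bicarbonate handling, 11 passed and 0 were called on day 2, with a median of -0.41. The water channel Aqp1 stood at 159, 98.8, 112 and 107 CPM, but its day 7 against day 2 ratio of 0.18 was -0.83 without the highest cell. The membrane carbonic anhydrase Car12 stood at 265, 199, 84.1 and 247 CPM, with a day 7 against day 2 ratio of -1.24, or -0.94 without the fibrinogen limit.

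Gatm, with 13429 UMIs in sham and 139 on day 7, had a log2 ratio of -1.08 on day 2 (-1.17 to -0.99), of -1.11 on day 7 against day 2 (-1.38 to -0.85) and of 2.12 after reversal against day 7 (1.88 to 2.37). The day 2 ratio was -0.87 with mitochondrial UMIs in the total, -0.94 with a mitochondrial limit of 20% and -0.93 with a marker sum of at least 6. With every cell weighted equally the day 7 against day 2 ratio was -0.42. Miox, the kidney-restricted inositol oxygenase, stood at 3957 CPM for sham, 1536 for day 2, 740 for day 7 and 3077 for the reversed library. Ass1, which with argininosuccinate lyase makes arginine from citrulline, stood at 3235, 1338, 622 and 2629 CPM. Summed over all members, these 3 genes were highest in sham and lowest on day 7. In cells with 20% to 50% mitochondrial UMIs Gatm had 1778 CPM on day 7 and 1707 on day 2, against 536 CPM in the day 7 cells under 20%. The reversed levels differed from sham by -0.07 (Gatm), -0.36 (Miox) and -0.30 (Ass1) on the log2 scale. Acmsd, an enzyme of tryptophan breakdown, stood at 144, 55.3, 33.6 and 155 CPM. Fah, the last enzyme of tyrosine breakdown, was not lower on day 2, with 197, 211, 72.9 and 130 CPM. Of 20 listed genes of amino acid breakdown and creatine synthesis, 15 passed the filter and 7 were lower on day 2, beside 2.8% of all genes considered, with a median of -0.71, and on day 7 against day 2 it was 6 lower and 1 higher of 14, beside 5.95% and 8.88%. After reversal against day 7, 7 of 14 were higher and 0 lower, beside 7.64% and 12.4% (median 1.16).

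Genes of glucose synthesis did not all follow 1 course. G6pc, glucose-6-phosphatase, which releases free glucose, stood at 533 CPM for sham (2012 UMIs), 117 for day 2 (70 UMIs), 101 for day 7 (18 UMIs) and 425 for the reversed library, with a day 2 ratio of -2.18 (-2.54 to -1.83). Its transporter partner Slc37a4 stood at 262, 134, 101 and 216 CPM. Pck1, the first committed enzyme of the pathway, was at 734 CPM in sham and 724 on day 2, and lower only on day 7 at 280 CPM, with a ratio of -1.37 against day 2 (-1.82 to -0.94) and 703 CPM after reversal. With every cell weighted equally that ratio was -0.86. Fbp1, fructose bisphosphatase, stood at 1084, 707, 589 and 986 CPM. Pcx, pyruvate carboxylase, stood at 310, 223, 72.9 and 268 CPM. Gldc, of the glycine cleavage system, had 212, 137, 33.6 and 132 CPM, its day 7 value from 6 UMIs. Of the 15 listed genes of glucose and ammonia production, 15 passed on day 2 with 1 lower, G6pc, beside 2.8% of all genes considered, and a median of -0.50. Of these, 4 of 15 were lower on day 7 against day 2, beside 5.95% of all genes considered. After reversal against day 7, 6 of 15 were higher and 1 lower, beside 7.64% and 12.4%.

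Other genes with large differences on day 2 had varied roles. Kap, the androgen-regulated kidney protein gene, stood at 4416 CPM for sham, 375 for day 2, 1211 for day 7 and 5358 for the reversed library. Its day 7 against day 2 ratio of 1.69 was 0.62 without the highest cell. Kap is also 1 of 14 listed S3 markers, which summed to 5745, 968, 2169 and 6468 CPM in members, where S3 cells numbered 96, 0, 12 and 39. Kap itself made up most of each sum except on day 2, so the sums are no separate measure of S3. The part of S3 cells or their RNA in the course of Kap was not tested. Inmt, an N-methyltransferase, stood at 251, 13.4, 11.2 and 161 CPM, with a day 2 ratio of -4.13 (-5.22 to -3.20), the lowest of the genes considered. Ces1d, a carboxylesterase, stood at 232 CPM in sham, 35.2 on day 2 and 245 after reversal. Cyp24a1, the enzyme that inactivates vitamin D, stood at 136, 30.1, 33.6 and 78.4 CPM, with a day 2 ratio of -2.13 (-2.87 to -1.48). Kl, the co-receptor klotho, stood at 368, 186, 179 and 350 CPM, and Pth1r, the parathyroid hormone receptor, at 502, 479, 432 and 465 CPM. Ttr, the carrier transthyretin, stood at 999, 301, 213 and 937 CPM, but 24 of its 38 UMIs on day 7 came from 1 cell. Agt, angiotensinogen, was higher on day 2, at 3.45 CPM for sham, 56.9 for day 2, 16.8 for day 7 and 24 for the reversed library (13, 34, 3 and 67 UMIs), with a log2 ratio of 3.70 (2.87 to 4.52). S100g, the calcium-binding protein calbindin-D9k, was at 677 CPM on day 2 (404 UMIs), 67.3 on day 7 (12 UMIs) and 197 after reversal. Its log2 ratio of day 2 to sham was 1.31, or 0.78 with a mitochondrial limit of 20%. Of 17 listed genes of vitamin D, parathyroid hormone and klotho, 9 passed on day 2 with 1 higher and 1 lower, beside 4.88% and 2.8% of all genes considered, and a median of -0.46.

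No listed nuclear gene of the respiratory chain was past 2-fold at either step of obstruction. For 18 genes a count of 0 is not far from the background shares below, so it is no result about them. Cox4i1, a subunit of cytochrome c oxidase, stood at 4166, 3038, 2545 and 3514 CPM, and Ndufa4 at 3492, 2368, 1883 and 2913 CPM. Cycs, cytochrome c, stood at 1898, 1119, 947 and 1482 CPM. Of 19 listed genes, 18 passed the filter on day 2 and 0 were called, beside 4.88% higher and 2.8% lower of all genes considered. The median was -0.56 beside -0.05 for all genes considered, or -0.36 with mitochondrial UMIs in the total. For day 7 against day 2, 0 of 18 were called, beside 8.88% and 5.95%, and the median was -0.25. It was 0.66 after reversal against day 7, with 2 of 18 genes higher 2-fold or more, beside 7.64%. The share of mitochondrially encoded UMIs in members was lower on these days, at 35.0%, 25.0%, 15.2% and 29.6% of all their UMIs, and its part in these nuclear genes was not tested.

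Among the fat oxidation genes, 3 were past 2-fold on day 2. Cyp4a14 and Cyp4a10, fatty acid hydroxylases that are targets of PPAR alpha, were higher on day 2 and low on day 7. Cyp4a14 stood at 6.36, 50.2, 5.61 and 4.65 CPM (24, 30, 1 and 13 UMIs), with a day 2 ratio of 2.80 (2.03 to 3.55). Cyp4a10 stood at 42.4, 104, 16.8 and 39 CPM, and Acot1, an acyl-CoA thioesterase, at 14.3, 58.6, 107 and 47.2 CPM. These 3 were the genes called higher among the 19 of 22 that passed, and none was lower, beside 4.88% and 2.8% of all genes considered. On day 7 against day 2 it was 0 higher and 4 lower of 19, beside 8.88% and 5.95%, with a median of -0.21. Acaa2, the last enzyme of mitochondrial beta-oxidation, stood at 338, 173, 67.3 and 332 CPM. Ldhb, the lactate dehydrogenase subunit of oxidative tissue, was highest on day 7 with 1215, 1054, 2792 and 1138 CPM and a day 7 against day 2 ratio of 1.40 (1.23 to 1.58), or 0.95 without the fibrinogen limit and 0.99 with every cell weighted equally.

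Gpx3, the plasma glutathione peroxidase made mainly by the proximal tubule, was among the most abundant transcripts, with 68251 CPM for sham, 48735 for day 2, 18370 for day 7 and 35597 for the reversed library. Its reversed level was still below sham, with a log2 ratio of -0.94. Fth1, ferritin heavy chain, was highest on day 2, at 14552, 26399, 9692 and 13326 CPM, and Ftl1, ferritin light chain, stood at 14573, 12981, 5981 and 10086 CPM. Hmox1, haem oxygenase 1, had 144 CPM on day 2 beside 21.5 in sham, but 71 of its 86 UMIs on day 2 came from 1 cell. Of 20 antioxidant genes, 18 passed on day 2 with 2 higher and 0 lower, beside 4.88% and 2.8% of all genes considered. Hmox1 and the metallothionein gene Mt2 were higher on day 2. Without its highest cell the Hmox1 ratio of 2.69 was 0.27, and Mt2 stood at 68.7 CPM beside 152 in reference cells. On day 7 against day 2 it was 1 higher and 6 lower of 18, beside 8.88% and 5.95%.

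Genes of tubule injury were higher in members during obstruction, although the rule left out cells with much fibrinogen. Spp1, the secreted protein osteopontin, stood at 1843 CPM for sham, 23230 for day 2, 17826 for day 7 and 3095 for the reversed library, with a day 2 ratio of 3.65 (3.61 to 3.70). It was found in 1304 of 1428, 139 of 139, 25 of 25 and 626 of 635 members. Reference cells had 642, 9967, 4032 and 2216 CPM, below the members in each library. C3, complement component 3, stood at 2.12, 156, 1357 and 79.8 CPM (8, 93, 242 and 223 UMIs), with ratios of 5.65 on day 2 (4.85 to 6.41) and 3.11 on day 7 against day 2. Reference cells had 12.1, 27.6, 81.6 and 36 CPM of it. Cp, the copper-binding ferroxidase ceruloplasmin, stood at 1.33, 31.8, 622 and 45.4 CPM, above the reference on day 7 (52.3 CPM) and near it on day 2 (35.9 CPM) and after reversal (42.6 CPM).

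**Figure D3:**
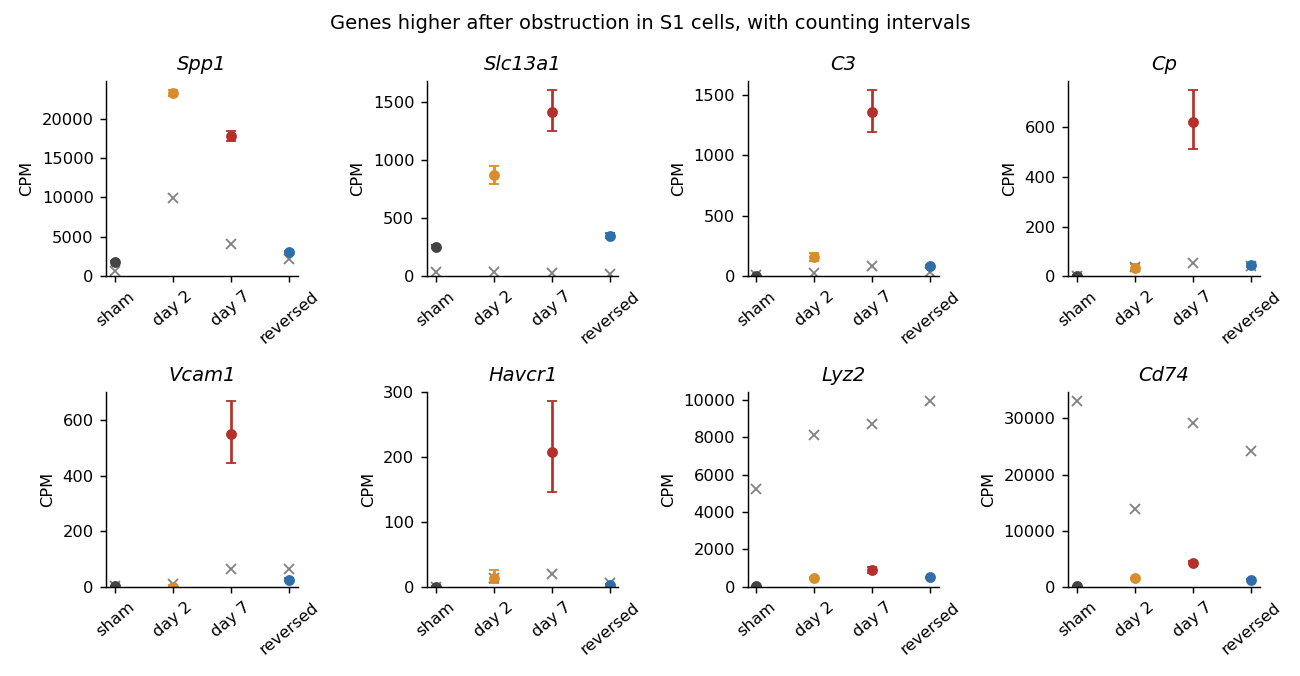
CPM in S1 cells of Spp1, Slc13a1, C3, Cp, Vcam1, Havcr1, Lyz2 and Cd74 in the sham, day 2, day 7 and reversed libraries, as points with exact Poisson 95% counting intervals, beside the level in reference cells with a Ptprc UMI (grey crosses). Slc13a1, C3 on day 7 and Vcam1 on day 7 lay above the reference, while Lyz2 and Cd74 lay far below it in each library.

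On day 7 UMIs of several injury genes were found in part of the 25 members, and a member without a UMI may still express the gene. A UMI of C3 was found in 15 of them, with 75 of 242 UMIs in the highest cell. Cp was found in 12 cells (26 of 111 UMIs in the highest), Vcam1, an adhesion molecule of failed tubule repair, in 9 (41 of 98) and Havcr1 (KIM-1), the standard marker of proximal tubule injury, in 7 (10 of 37). Vcam1 stood at 2.12, 0, 549 and 26.1 CPM, at least 109-fold higher on day 7 than the day 2 floor of 3 UMIs. Havcr1 stood at 0, 13.4, 207 and 2.15 CPM, from 0, 8, 37 and 6 UMIs. Slc13a1 and Spp1 were found in all 25. After thinning to 1000 UMIs the day 7 shares were 40% for C3, 28% for Cp, 20% for Vcam1 and 8% for Havcr1, against 6.25%, 3.86%, 4.67% and 1.54% of reference cells, and 84% for Slc13a1 and 96% for Spp1, against 1.48% and 66.8%. Sox9, a transcription factor of tubule repair, stood at 0.53, 8.37, 61.7 and 5.37 CPM (2, 5, 11 and 15 UMIs), and Pax8, a factor of nephron identity, at 35.3, 50.2, 174 and 46.5 CPM. Hnf4a, a factor of proximal tubule identity, stood at 271, 211, 151 and 221 CPM. Of 25 injury genes, 11 passed on day 2 with 10 higher, beside 4.88% of all genes considered, and 8 of those 10 were below the reference cells of that library, C3 and Spp1 being the others. On day 7 against day 2, 16 passed with 8 higher and 1 lower, beside 8.88% and 5.95%, and 2 of the 8 were below the reference. After reversal against day 7, 17 passed with 12 lower and 0 higher, beside 12.4% and 7.64%.

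Of the stress-response genes, Jun, Hspa5, Hsp90aa1 and Cyr61 were highest on day 7, and several genes of this kind were also high in leukocytes. Jun, an immediate early transcription factor, stood at 16.7, 151, 964 and 192 CPM beside 282, 352, 442 and 606 in reference cells, so it passed the reference on day 7 alone, where 71 of its 172 UMIs came from 1 of 11 cells. Hspa5, the chaperone BiP of the endoplasmic reticulum, stood at 346, 464, 975 and 538 CPM, and Hsp90aa1 at 279, 332, 1015 and 465 CPM. Cyr61, a matrix protein gene induced by mechanical strain, had 53.6 CPM on day 2, 667 on day 7 and 43.3 after reversal, against 18.4 in reference cells on day 7. Of the 25 immediate early and chaperone genes, 6 of 10 that passed were higher on day 2 (4.88% of all genes considered), 9 of 14 on day 7 against day 2 (8.88% of all), and 11 of 18 were lower after reversal against day 7 (12.4% of all). Jun, Junb, Jund, Zfp36, Nfkbia and Dusp1 were higher on day 2 and lay below the reference cells of that library. Junb, for example, stood at 85.4 CPM in members and 793 in the reference.

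Several interferon-response and antigen presentation genes were highest on day 7 in members as well. B2m, the light chain of MHC class I, stood at 603, 1099, 2657 and 923 CPM, and H2-K1, a heavy chain, at 133, 271, 1026 and 278 CPM. Both lay below the reference in each library, where B2m had 4518, 3446, 5032 and 4262 CPM and H2-K1 had 1106, 635, 1325 and 1214 CPM. Ubd, a ubiquitin-like protein induced by interferon, was at 5.02 CPM on day 2, 241 on day 7 and 10 after reversal, against 5.03 in reference cells on day 7, and was found in 9 of 25 members. Of 20 interferon genes, 12 passed on day 7 against day 2 and 11 were higher, beside 8.88% of all genes considered, with a median of 1.88. After reversal against day 7, 14 of 15 were lower, beside 12.4%. Cxcl10, a chemokine of this group, had 202 CPM on day 7, of which 20 of 36 UMIs came from 1 cell.

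In members, UMIs of leukocyte and erythrocyte genes were higher in the obstructed and reversed libraries than in sham. Their part in the differences above was not tested. The summed level of 7 macrophage markers in members was 50.1 CPM for sham, 965 for day 2, 2231 for day 7 and 964 for the reversed library, with 6 of 7 detected and Ptprc at 0 by the rule, against 10562, 13954, 17816 and 16739 CPM in reference cells. Neutrophil markers summed to 3.45, 194, 241 and 58.3 CPM, and those of fibroblasts to 2.39, 10.0, 84.1 and 72.6 CPM. T cell markers summed to 5.30, 10.0, 50.5 and 59.0 CPM, and B cell markers to 2.39, 15.1, 11.2 and 24.0 CPM. The macrophage and neutrophil sums were highest on day 7, and those of T cells, B cells and erythrocytes after reversal. Erythrocyte markers summed to 6.10, 23.4, 297 and 413 CPM in members and to 9.09, 17.8, 855 and 146 CPM in reference cells, so members lay above the reference on day 2 and after reversal. Markers of the thick limb summed to 324, 280, 151 and 272 CPM, highest in sham. Lyz2, the lysozyme of macrophages, was found in 68 of 1428, 90 of 139, 24 of 25 and 529 of 635 members, and after thinning in 1.4%, 15.1%, 36% and 32% of members against 46.9%, 63.3%, 85.5% and 65% of reference cells. Cd74, the invariant chain of MHC class II, stood at 148, 1549, 4271 and 1261 CPM against 33107, 13778, 29170 and 24231 CPM in reference cells.

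Counted over genes, those higher than in sham were often at a lower level than in the reference, and those higher than in an obstructed library were not. Of the 141 genes higher on day 2, 92 lay below the reference of the same library (65.2%), beside 32.8% of all genes considered. The share was 25.3% of the 285 higher on day 7 against day 2, beside 26.7% of all, 75.5% of the 98 higher after reversal against sham, beside 29.2%, and 5.51% of the 272 higher after reversal against day 7, beside 36.9%. Lcn2, the iron-binding lipocalin used as a tubule injury marker, belonged to this class on day 2, at 116 CPM in members and 398 in the reference. So did Vim, the intermediate filament vimentin, at 68.7 and 900 CPM, and Clu, clusterin, at 467 and 1378 CPM. The cell cycle genes Top2a and Mki67 had 40.2 and 31.8 CPM in members on day 2 and 112 and 62.2 CPM in reference cells.

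After reversal few genes were 2-fold from sham, and most of those were higher. None of the 12 apical, 16 basolateral, 17 endocytosis, 15 glucose and ammonia or 15 amino acid genes that passed the filter was 2-fold different between reversed and sham, where 3.45% of all genes considered were higher and 0.105% lower, so that a count of 0 is near the background. The lists had medians of -0.01 for apical, -0.25 for basolateral, -0.18 for glucose and ammonia and -0.36 for amino acid genes. The basolateral median was 0.02 when the rule was applied at 1000 UMIs per cell. With a mitochondrial limit of 20% the medians were -0.55 (basolateral), -0.51 (glucose and ammonia) and -0.72 (amino acid), and 314 genes were higher and 79 lower. Fewer genes were higher in cells with at least 20% mitochondrial UMIs, and more were lower at 1000 UMIs per cell and with TMM factors. Those counts are given in the last section. The 3 genes called lower were Cyp2d12, a cytochrome P450 (107 CPM in sham and 22.2 reversed), Egf, epidermal growth factor (81.7 and 37.6), and Fam25c (53.6 and 25.4). The ratios of Egf (-1.10) and Fam25c (-1.05) were under 2-fold with mitochondrial UMIs in the total (-0.98 and -0.92), with 10 CPM added (-0.95 and -0.84), with equal cell weights (-0.94 and -0.93) and in cells with at least 20% mitochondrial UMIs (-0.92 and -0.84), and that of Fam25c was -0.34 at 1000 UMIs per cell. Egf is made mainly by later segments than the proximal tubule. Of the 25 injury genes, 8 of 10 that passed were higher than in sham, C3 among them with a log2 ratio of 4.69, and 6 of the 8 were below the reference cells. Of 20 interferon and antigen presentation genes, 6 of 8 that passed were higher than in sham (median 1.88) and 0 lower, and of 25 immediate early and chaperone genes 6 of 11 (median 1.70) and 0 lower, beside 3.45% and 0.105% of all genes considered. H2-K1, H2-D1, Psmb8, Ifitm3, H2-Aa and Cd74 lay below the reference cells, for example H2-D1 at 369 and 2517 CPM. Fos, Jun, Junb, Btg2, Dusp1 and Nfkbia were below them too, for example Fos at 140 and 879 CPM. Among the genes farthest above sham, Igfbp2 had 139 of its 150 UMIs in 1 of 12 cells, and Tagln, the smooth muscle gene transgelin, had 217 of 298 in 1 cell. Without that cell the log2 ratio of Tagln was 4.57 in place of 6.14. Mgp, matrix Gla protein, was spread more widely, with 2.12 CPM in sham and 205 after reversal over 259 members and 178 of 572 UMIs in the highest. Reference cells of the reversed library had 471 CPM of Mgp and 116 of Tagln, above the 205 and 107 CPM of members, and 12.2 CPM of Igfbp2, below the 53.7 of members.

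Members differed among themselves by their mitochondrial share. Cells under 20% mitochondrial UMIs were 5.88% of members for sham (84 of 1428), 21.6% for day 2 (30 of 139), 60% for day 7 (15 of 25) and 15.9% for the reversed library (101 of 635). Malat1, a long non-coding RNA held in the nucleus, had 118806 CPM in the sham cells under 20% and 19108 in those from 20% to 50%, and 130236 and 33144 CPM after reversal. On day 7 the 15 cells under 20% held 143531 nuclear-encoded UMIs and the other 10 held 34862, so levels are compared per total. C3 had 1637 CPM in the 15 cells and 201 in the 10 (235 and 7 UMIs), Cp 766 and 28.7 (110 and 1 UMIs) and the stress gene Jun 1191 and 28.7 (171 and 1 UMIs). Vcam1 had 98 and 0 UMIs and Havcr1 37 and 0. In the 10 cells Slc34a1 had 4045 CPM against 1268 and Gatm 1778 CPM against 536. Slc22a8 had 115 CPM there against 20.9, from 4 and 3 UMIs. Slc13a1, at 1428 CPM under 20% and 1377 above it, did not follow that division, and Spp1 stood at 19243 and 11990 CPM. On day 2 the genes were mixed. Jun had 332 and 58.2 CPM, Cp 49.6 and 22.8 (10 and 9 UMIs) and Slc22a8 49.6 and 106 under 20% and above it, while C3 had 144 and 162, Spp1 16383 and 26720 and Gatm 1637 and 1707 CPM. After reversal the same division gave 223 and 25.6 CPM of C3, 136 and 11.3 of Cp, 133 and 314 of Slc22a8 and 2164 and 3847 of Gatm.

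**Figure D4:**
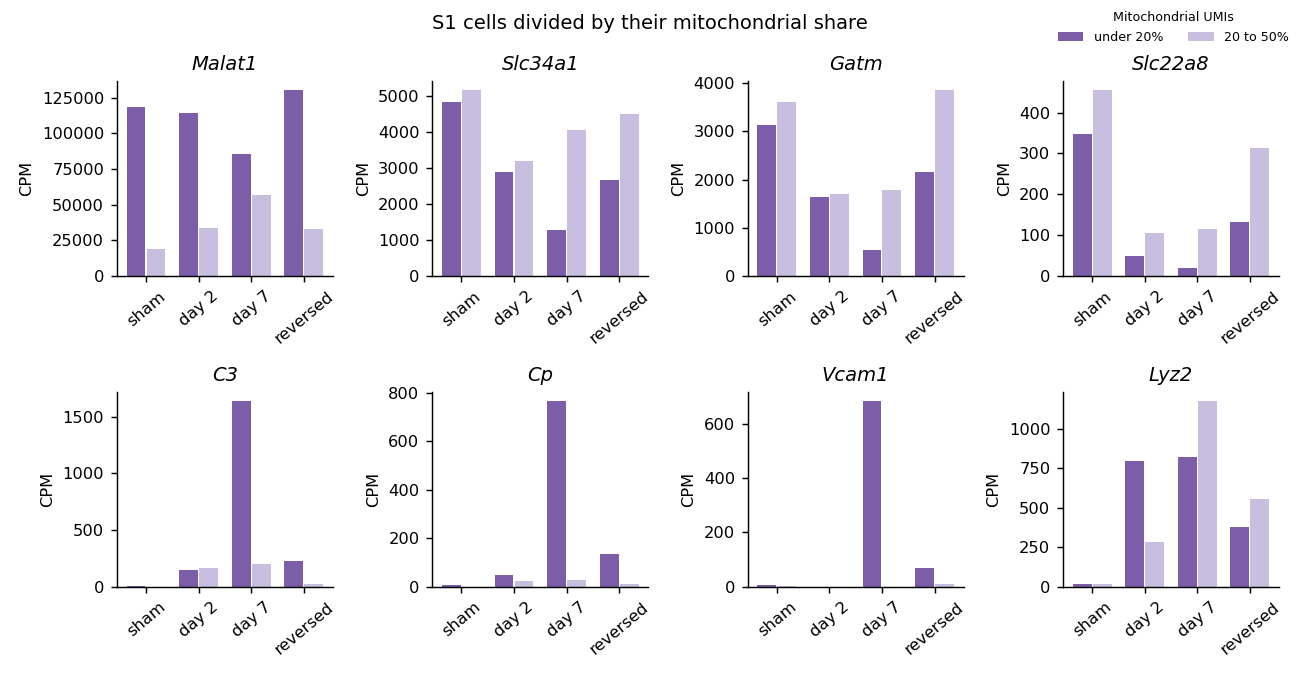
CPM in S1 cells with under 20% mitochondrial UMIs (dark bars) and with 20% to 50% (light bars) for Malat1, Slc34a1, Gatm, Slc22a8, C3, Cp, Vcam1 and Lyz2 in the 4 libraries. On day 7, Vcam1 had 683 CPM in the 15 cells under 20% and 0 in the other 10, and Gatm had 536 and 1778 CPM.

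Members of a library were also ordered by mitochondrial share, divided into 3 equal parts, and the part at the low end was compared with that at the high end. In sham (476 cells each) 81 of 2754 genes were higher in the cells at the low end (2.94%) and 3 lower (0.109%), led by nuclear RNAs such as Malat1 at 59300 and 6491 CPM, Neat1 at 540 and 127 and Snhg11 at 423 and 44 CPM. On day 2 (47 and 46 cells) it was 112 of 1886 higher (5.94%) and 53 lower (2.81%). After reversal (212 cells each) it was 246 of 3130 higher (7.86%) and 19 lower (0.607%). Here Cp at 90.7 and 7.16 CPM, C3 at 158 and 17.2 and Sox4, a transcription factor of tubule development, at 78.1 and 12.9 CPM were higher in the cells at the low end beside the nuclear RNAs. Slc22a8 at 189 and 384 CPM and Ces1d at 155 and 332 CPM were lower. The median depth at the low end, in the middle and at the high end was 3432, 3429.5 and 3843 UMIs in sham, 6056, 4825 and 4808.5 on day 2 and 5822, 4806 and 5206 after reversal. The part of the mitochondrial share, of depth and of nuclear RNA in the injury and transport genes was not tested.

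S1 and S3 cells of the same library differed in many genes, part of them in both libraries with enough S3 cells. S3 cells were taken as those with at least 4 UMIs of Slc7a13 and at most 1 over the 3 S1 genes, 96 in sham and 39 after reversal. In sham 193 of 2930 genes were higher in S1 (6.59%) and 262 lower (8.94%), and after reversal 249 of 3122 were higher (7.98%) and 236 lower (7.56%). With mitochondrial UMIs in the total the numbers were 105 and 261 in sham and 143 and 196 after reversal. Of the genes called without them, 102 were higher in both libraries (52.8% of the sham genes and 41.0% of the reversed), 144 were lower in both (55.0% and 61.0%) and 0 were called in opposite directions. Gatm was at 3561 CPM in S1 and 265 in S3 cells of sham, a log2 ratio of 3.75 (3.44 to 4.07), and at 3386 and 244 after reversal, a ratio of 3.79. Slc34a3 had 457 UMIs in S1 cells and 0 in S3 cells of sham, and 322 and 0 after reversal. Slc5a12 stood at 358 and 9.45 CPM in sham, where S3 cells had 3 UMIs of it, with a ratio of 5.10 (3.65 to 6.93).

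Transporters differed in both directions. Of the 13 apical genes that passed, 2 were higher and 5 lower in S1 cells of sham, beside 6.59% and 8.94% of all genes considered (median -0.48), and 3 higher and 3 lower after reversal, beside 7.98% and 7.56% (median -0.70). Slc22a12, on the lower side, stood at 424 CPM in S1 and 1379 in S3 cells of sham and at 525 and 1093 after reversal. Of the 16 basolateral genes, 6 were higher and 3 lower in S1 in each of these libraries, with medians of 0.23 and 0.29. The lower ones included Slc22a6, at 216 and 1172 CPM in sham and 247 and 1199 after reversal. On the higher side, Slc7a8 stood at 360 CPM in S1 and 37.8 in S3 cells of sham and at 248 and 21.2 after reversal. Slc2a2 stood at 290 and 107 CPM and at 285 and 101, and Slc4a4 at 1551 and 690 CPM and at 1756 and 817. Other genes were alike, such as Slc34a1 at 5132 and 4762 CPM in sham and 4006 and 3980 after reversal, Lrp2 at 1091 and 992 and at 1027 and 1136, and Fbp1 at 1084 and 1083 and at 986 and 1035. Genes higher in S3 cells included Slco1a1, an organic anion carrier, at 10.1 CPM in S1 and 586 in S3 cells of sham and at 5.37 and 632 after reversal, and Kap at 4416 and 49488 and at 5358 and 59181 CPM. Lpl, lipoprotein lipase, stood at 98.6 and 1590 CPM in sham and at 74.1 and 1385 after reversal, and Cd36, a fatty acid transporter, at 28.9 and 579 and at 44.7 and 504 CPM. Of 22 fat oxidation genes, 19 passed in sham with 1 higher and 10 lower in S1, beside 6.59% and 8.94% of all genes considered, with a median of -1.08 beside -0.08. After reversal 19 passed with 1 higher and 6 lower, beside 7.98% and 7.56%, with a median of -0.62 beside 0.05. The respiratory chain genes, 18 of which passed in each library, had 0 called in either direction and medians of 0.16 and 0.18.

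**Figure D5:**
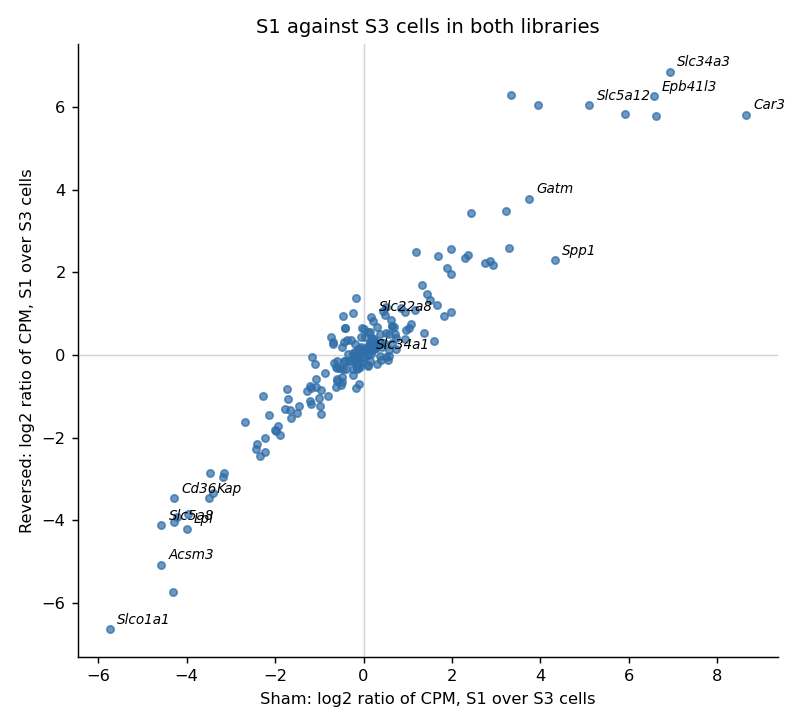
Log2 ratio of CPM in S1 over S3 cells in the sham library (x axis) and the reversed library (y axis) for the 199 genes of the named lists and largest changes that passed the level filter in both, each point a gene. Of them, 164 had the same sign in both libraries. Part of the genes were picked for their large ratios in these same libraries, so that count is a description only. Genes with 0 UMIs in S3 cells, such as Slc34a3, are placed by the added 1 CPM and are no measure of size.

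On the obstructed days S1 cells could be set beside the proximal cells with at least 5 fibrinogen UMIs (205 cells on day 2 and 36 on day 7). The rule for S1 cells used fibrinogen, so genes of the same injury state are tied to it and these values are a description. On day 2, 62 of 2923 genes were higher in S1 cells (2.12%) and 87 lower (2.98%). Havcr1 stood at 13.4 CPM in S1 cells and 282 in the others, Cp at 31.8 and 171, Sox9 at 8.37 and 62.7, and Spp1 at 23230 and 54599 CPM. Ttr at 301 and 57.2 CPM, Slc7a8 at 312 and 105 and Gatm at 1683 and 770 were higher in S1 cells. Slc13a1, the sulphate transporter, was at 869 CPM in S1 cells and 2193 in the fibrinogen-expressing cells. On day 7, 75 of 2103 genes were higher in S1 cells (3.57%) and 75 lower (3.57%). Of 25 injury genes, 16 passed on day 2 with 2 higher and 8 lower in S1 cells, and 14 on day 7 with 3 higher and 0 lower; the difference between the days was not tested. On day 7 Havcr1 stood at 207 and 326 CPM, Cp at 622 and 363, C3 at 1357 and 1094 and Vcam1 at 549 and 184. Kap was lower in S1 cells at both times, with 375 and 4027 CPM on day 2 and 1211 and 15162 on day 7, and S3 genes such as Lpl (16.8 and 267 CPM on day 7) and Cyp4b1 (168 and 685) lay on the same side.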

How the data were processed

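The series holds 4 droplet libraries, used here, and 1 plate-based sample, not used here. The authors deposited whole-number UMI counts per gene and cell barcode, and the submitters' processing notes name Cell Ranger, STAR and the mouse build GRCm38 (mm10); settings and filters on cells are not given in the sources used here. Deposited barcodes numbered 5938, 2739, 4504 and 3695 (sham, day 2, day 7, reversed), of which 3933, 2207, 4447 and 3236 passed the limits on genes and mitochondrial UMIs. No paper was used.

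Counts of member cells were summed per library and scaled to CPM of nuclear-encoded UMIs with Python 3.11.15, numpy 2.4.6, scipy 1.17.1 and pandas 2.3.3. No count model was fitted, because each group is 1 library. Intervals are exact 95% ones: Poisson for levels, binomial for shares and ratios of counts. The limits for ratios were taken from the counts and then put on the log2 scale with 1 CPM added to each value. UMIs correct for copies made in amplification, and intervals and the floor of 3 counts cover counting error only. The cells of a library share its animals and its preparation, so they are not replicates.

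Genes named were the members of 16 functional lists and of marker lists, and the 10 largest differences in each direction. The members and the lists were chosen with earlier results of these data known, so no list is independent evidence of a direction. Doublets were not removed: the automatic threshold of Scrublet in scanpy 1.11.5 marked 1, 1, 2 and 3 cells and had not worked, so the highest scores, 0.8% per 1000 deposited cells, were left out as an alternative. TMM factors came from edgeR 4.0.16 in R 4.3.3. Scripts were tested on simulated counts. Gene symbols come from the deposited files. Some members of the lists are not reported here by name. The alternatives based on the highest cell of a gene and on cells with at least 20% mitochondrial UMIs were chosen after seeing the data.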

Additional observations from a re-analysis of the deposited data

How the results depend on the processing

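No paired analysis was possible because each group has 1 library, and for the same reason no replicate could be left out. Removing the highest doublet scores moved no share, and neither that nor weighting cells equally moved a count of genes or a list median past the set limits, although with equal weights 30 single differences were under 2-fold, and 21 without the fibrinogen limit. With CPM of all UMIs, genes higher after reversal against day 7 numbered 116 and lower genes 37 on day 2, 85 on day 7 against day 2 (446 higher) and 1 after reversal against sham. S1 genes above S3 numbered 105 in sham and 143 after reversal. The respiratory chain median was -0.36 on day 2 and -0.11 after reversal against sham, and that of amino acid genes -0.22. With TMM factors, 168 were higher and 344 lower on day 7 against day 2, 238 lower after reversal against day 7 and 11 lower against sham, where the medians were -0.40 (basolateral), -0.33 (glucose and ammonia), -0.51 (amino acid) and -0.37 (respiratory chain). In cells with at least 20% mitochondrial UMIs, 47 genes were higher after reversal against sham, with medians of -0.060 (glucose and ammonia), -0.17 (amino acid) and -0.10 (respiratory chain), and the day 2 respiratory chain median was -0.44. Leaving out the highest cell of each gene gave 93 higher on day 2, 136 higher and 333 lower on day 7 against day 2, and 492 higher and 170 lower after reversal against day 7. A floor of 100 UMIs and 100 CPM gave 62 higher and 50 lower on day 2, 50 and 54 on day 7 against day 2, 145 and 164 after reversal against day 7, and 50 and 1 against sham. No floor gave 2302 and 993, 2739 and 3009, 3388 and 2241, and 2044 and 109, mostly genes of very few UMIs. A pseudocount of 10 CPM left 1 gene lower after reversal against sham.

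Of the limits in the rule, a marker sum of at least 6 gave shares of 25.0% in sham, 3.99% on day 2 and 15.7% after reversal. A mitochondrial limit of 20% gave shares of 13.0%, 1.98%, 0.359% and 4.87%, 151 genes lower on day 2, and 314 higher and 79 lower after reversal against sham, with medians of -0.55 (basolateral), -0.51 (glucose and ammonia), -0.72 (amino acid) and -0.35 (respiratory chain). Without the fibrinogen limit the day 2 share was 9.83% and 95 genes were lower on day 7 against day 2. At 1000 UMIs per cell the shares were 7.93%, 0.544%, 0.0675% and 3.28%, 24 genes were lower after reversal against sham, and the medians were 0.019 (basolateral) and -0.22 (amino acid). The causes of these shifts were not tested. Comparisons with under 20 S1 cells in a library gave no value under an alternative. This concerned day 7 under the stricter rules, and day 2 (12 cells) and day 7 (3 cells) at 1000 UMIs. Depth limits day 7 most, where 3 UMIs stand for 16.8 CPM.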
